A study of Homo sapiens with 4 samples.

Results

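The 10 genes described here encode the parts of the canonical and non-canonical inflammasome and the protein that opens the membrane in pyroptosis: NLRP3, NLRC4, NLRP1, AIM2, MEFV, PYCARD, CASP1, CASP4, CASP5 and GSDMD. They were chosen by name, and every probe set annotated to a listed symbol was taken, where a probe set is a group of short probes reading part of a transcript. This gave 23 probe sets, of which 22 name a single gene and 1 names CARD16 and CASP1 together, out of 54675 on the array. The 10 genes stand among 19775 with a probe set of their own.

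The cells were THP-1, an established line from an acute monocytic leukaemia, and 4 arrays were measured, 1 per group. The first held resting, untreated cells and the second cells activated with Pam3CSK4, a synthetic lipopeptide ligand of TLR2 paired with TLR1. The other arrays held cells that had also received Pam3CSK4 and were kept with platelet-like particles (PLPs) for 12 h or 24 h. The source of the particles and the length of treatment on the Pam3CSK4 array are not given in the sources used here, so particles and time cannot be told apart. THP-1 is leukaemic, which limits it as a model of blood monocytes, and nothing in the labels names separate cultures. With 1 array per group there is no spread between cultures, no test was possible, and every difference below compares 2 arrays.

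Inflammasomes are assemblies that form in the cytosol of monocytes and macrophages when a sensor protein detects microbial products or damage. The sensor gathers the adaptor ASC, encoded by PYCARD, and the adaptor gathers pro-caspase-1, which then cuts the precursors of the cytokines IL-1 beta and IL-18 and the pore-forming protein gasdermin D. The human caspases encoded by CASP4 and CASP5 bind bacterial lipopolysaccharide directly and also cut gasdermin D, whose pores release the cytokines and kill the cell. Ligands of Toll-like receptors are widely used to prime the system, that is, to raise the amount of its components before a second signal assembles them. The arrays read transcript amount, not assembly, cleavage or cell death.

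Values are log2 intensities after RMA, so a difference of 1 is 2-fold. Where a gene had several probe sets, the brightest on average stood for it. A gene entered the comparisons where 1 or more arrays read at least 6.19 there, which is the middle of all deposited values and is called the filter level here. All 10 genes did so, as did 16 of the 23 probe sets. AIM2 reached that level on the 12 h array alone, and CASP5 and NLRC4 reached it on the 3 treated arrays, so these genes entered through arrays on which they were high. As the available measure of precision, the differences given by several probe sets of a gene had a median range of 0.25 for Pam3CSK4 against resting, 0.23 for 12 h and 0.15 for 24 h against Pam3CSK4. These ranges came from 6187 genes and leave out the spread between cultures.

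Of 8 listed monocyte genes, 6 had a probe set of their own, and 5 of the 6 reached the filter level on every array. FCGR1A was the exception, at 4.41 to 4.94, and LYZ stood highest of these at 12.98 to 13.81. Among all 19775 genes, 13410 reached the level on 1 or more arrays. Of 6 granulocyte genes, 5 reached it on the resting array, where ELANE read 13.61 and LYZ 12.98. These counts therefore do not establish the labelled cell type by themselves. The excess of the 3' over the 5' control reading of GAPDH, a sign of RNA integrity, was 2.16 on the resting array and 0.59 to 0.92 on the others. For ACTB the excess was large on every array: 3.41 in resting cells, 2.91 with Pam3CSK4, 3.17 at 12 h and 2.90 at 24 h.

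With Pam3CSK4, 4 of the 10 genes stood 2-fold or more above the resting array and 0 stood 2-fold or more below it. The 4 were CASP5, NLRC4, CASP1 and AIM2, that is, 2 caspases and 2 sensors. Of them, only CASP1 reached the filter level on the resting array. CASP5, NLRC4 and AIM2 entered through treated arrays on which they were high, and AIM2 lay under the level on both arrays compared. NLRP3, PYCARD and GSDMD, the best known sensor, the adaptor and the pore former, were slightly lower than in resting cells. Over the 13410 genes compared, the shares past 2-fold were 4.14% upward and 1.71% downward. The median difference of the 10 genes was 0.53, against -0.047 over all genes compared, and 7 of 10 were above 0, against 42.2% of all genes. With the filter raised to the 75th percentile, 6 of the 10 genes remained, with 2 past 2-fold and a median of 0.32. The median was 0.32 with averaged probe sets, which left 8 genes. Leaving out probe sets of the suffixes _x_at and _s_at dropped PYCARD, NLRP1 and MEFV, whose differences were -0.1, 0.31 and 0.12. The median over the 7 genes left was 1.03. These are descriptions of the arrays, since the gene list was chosen with earlier results of these data known.

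**Figure D1:**
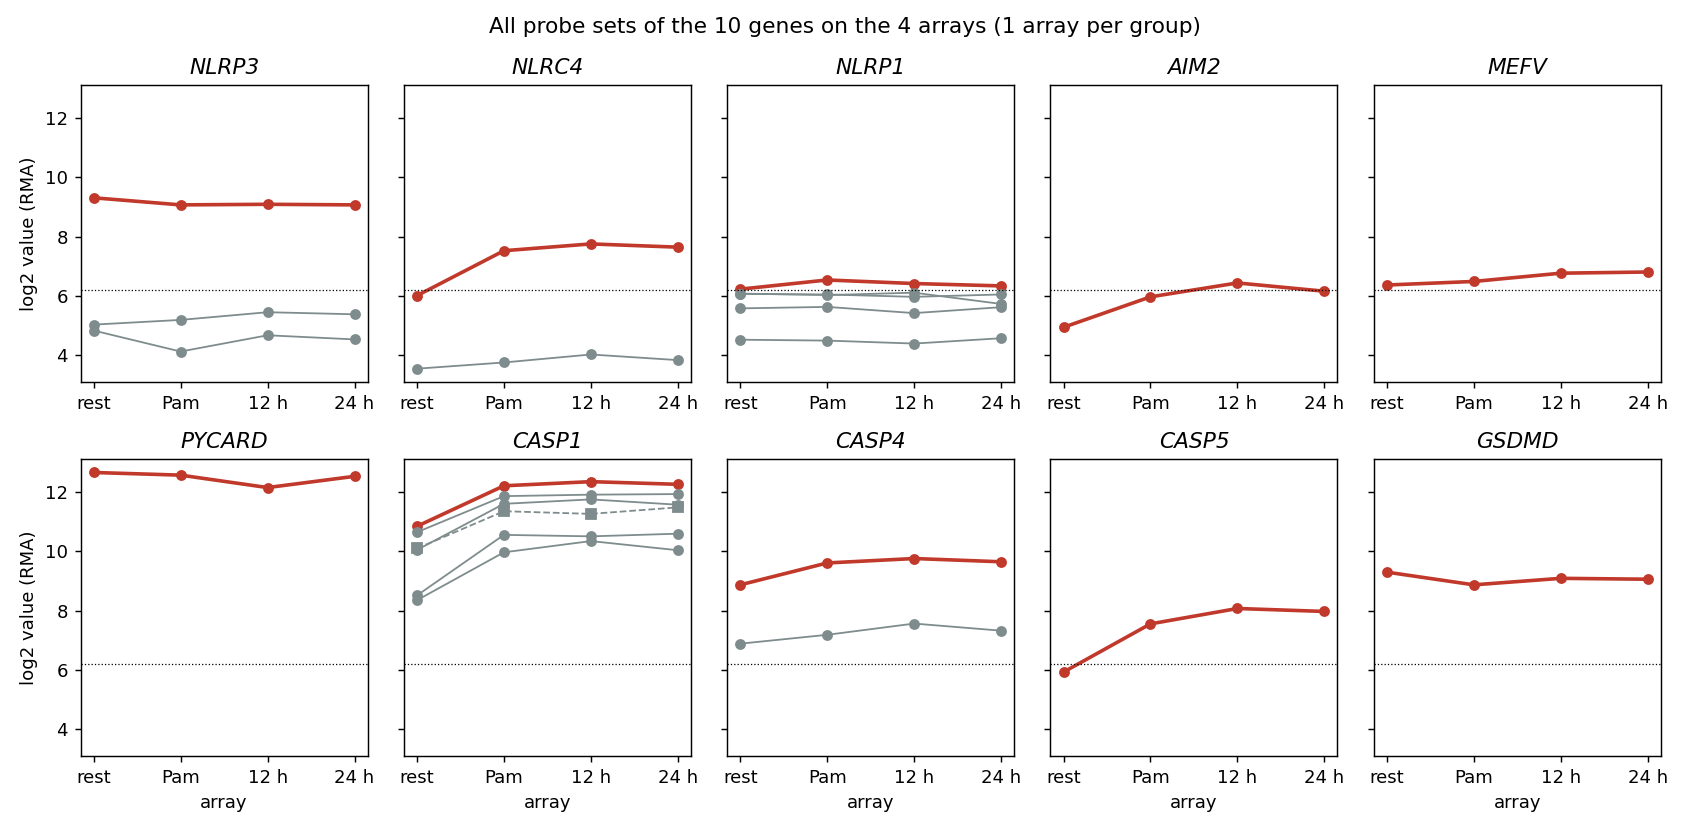
Log2 value (vertical axis) of every probe set of the 10 genes on the resting, Pam3CSK4, 12 h and 24 h arrays (horizontal axis), 1 array each. The red line is the probe set that stands for the gene, grey lines are its other probe sets, the dashed line with squares under CASP1 is the probe set that also names CARD16, and the dotted line is the filter level of 6.19. All 6 lines of CASP1 and the line of CASP5 step up between the resting and Pam3CSK4 arrays, while the red lines of NLRP3 and PYCARD do not.

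Among the caspases, CASP5 had the largest difference of the 10 genes on the probe sets that stand for them. Its single probe set read 5.92 in resting cells, 7.55 after Pam3CSK4, 8.07 at 12 h and 7.97 at 24 h. The resting array was thus the lowest and lay under the filter level, and the 3 treated arrays were within 0.52 of each other. The difference between Pam3CSK4 and resting was 1.63, or 3.10-fold, and 2.14% of all genes compared were at least as far up.

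CASP1, which encodes the protease that matures IL-1 beta, was higher with Pam3CSK4 on each of its 5 own probe sets, by 1.22 to 2.05. The probe set that stands for it read 10.85 in resting cells, 12.22 after Pam3CSK4, 12.36 at 12 h and 12.27 at 24 h. The resting array was the lowest and the 3 treated arrays lay within 0.14 of each other. Its difference was 1.37, or 2.59-fold. The widest difference, 2.05 or 4.13-fold, came from a probe set that went from 8.51 to 10.56.

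CARD16 encodes a short protein made of a caspase recruitment domain, lies next to CASP1 and closely resembles its first part. The probe set that names both genes went from 10.10 to 11.36, a difference of 1.26, and the probe set that stands for CARD16 went from 10.24 to 11.20, a difference of 0.97. Probes of CASP1 could bind CARD16 transcripts, so the share of each gene in these readings is uncertain. With probe sets of the suffixes _x_at and _s_at left out, which are those open to such binding by their design, CASP1 differed by 1.63 on the remaining probe set.

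CASP4, the other lipopolysaccharide-binding caspase, differed less. It read 8.87 in resting cells, 9.61 after Pam3CSK4, 9.76 at 12 h and 9.65 at 24 h, so that the resting array was again the lowest. Its difference with Pam3CSK4 was 0.74, or 1.67-fold, and 5.91% of all genes compared were at least as far up. A second probe set of CASP4 differed by 0.30, from 6.88 to 7.18, so the size of the difference depended on the probe set read.

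CASP4, CASP5, CASP1 and CARD16 lie side by side in this order on chromosome 11 in the RefSeq table of GRCh38.p14. Windows of 250 bases before the annotated start were read from RefSeq (GRCh38.p14) for 7 of the 10 genes. CASP1, GSDMD and NLRP1 had no entry. The windows of CASP5, CASP4, AIM2 and NLRC4 are printed 5' to 3' because CASP5, AIM2 and NLRC4 stood 2-fold or more higher with Pam3CSK4, and CASP4 is the neighbour and relative of CASP5 that differed less. All lie on the minus strand: CASP5 at chr11:105023169-105023418, CASP4 at chr11:104968575-104968824, AIM2 at chr1:159076767-159077016, and NLRC4, which has 3 annotated starts, at chr2:32264887-32265136 for the start whose window held a match. Capitals mark matches, on either strand, to 4 motifs: GAAANNGAA (a shortened interferon-stimulated response element), TTCNNNGAA (the gamma-activated site bound by STAT proteins), GGNNNTTCC (an NF-kB-like site) and TGANTCA (the AP-1 site).
CASP5: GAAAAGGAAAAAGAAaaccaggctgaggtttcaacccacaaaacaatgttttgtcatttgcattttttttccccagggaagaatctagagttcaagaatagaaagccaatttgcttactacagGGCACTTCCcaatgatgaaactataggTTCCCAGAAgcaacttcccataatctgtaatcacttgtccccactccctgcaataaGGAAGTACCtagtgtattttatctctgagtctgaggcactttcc
CASP4: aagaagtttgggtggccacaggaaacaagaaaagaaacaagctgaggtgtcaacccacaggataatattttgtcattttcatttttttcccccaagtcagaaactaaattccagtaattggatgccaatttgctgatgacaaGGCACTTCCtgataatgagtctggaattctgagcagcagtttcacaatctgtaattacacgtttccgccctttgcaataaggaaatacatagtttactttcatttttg
AIM2: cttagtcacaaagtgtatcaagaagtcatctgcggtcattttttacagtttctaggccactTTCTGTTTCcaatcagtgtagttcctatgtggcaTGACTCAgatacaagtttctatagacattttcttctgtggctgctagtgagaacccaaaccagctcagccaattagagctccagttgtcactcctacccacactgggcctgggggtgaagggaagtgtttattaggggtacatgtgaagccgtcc
NLRC4: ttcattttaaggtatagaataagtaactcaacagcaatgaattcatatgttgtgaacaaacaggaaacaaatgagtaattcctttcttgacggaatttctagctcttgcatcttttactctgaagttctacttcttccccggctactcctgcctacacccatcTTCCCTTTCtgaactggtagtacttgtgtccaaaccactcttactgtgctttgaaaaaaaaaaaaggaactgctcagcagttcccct

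The windows of CASP4 and CASP5 were 64.7% identical in a global alignment, against 36.9% to 49.1% over the 20 other pairs of the 7 genes. Both held the NF-kB-like match GGCACTTCC, which starts at -108 in CASP4 and at -127 in CASP5, counting the base before the annotated start as -1, and CASP5 held 2 matches to that form. Only the CASP5 window of this pair held the gamma-activated form, TTCCCAGAA at -100, and the shortened interferon-response form, which matched at 2 overlapping places from -250. Of all 35116 windows of this length in the table, several per gene where a gene has several starts, 17.1% held the NF-kB-like form and 6.57% the gamma-activated form. Of the 7 genes with a window, 5 held the NF-kB-like form: CASP4, CASP5, MEFV, NLRP3 and PYCARD. AIM2 and NLRC4 did not hold it.

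The shortened interferon-response form was found in CASP5, AIM2 and NLRC4, and in 6.88% of all windows. It was not found in the windows of NLRP3, CASP4, MEFV and PYCARD. In NLRC4 it stood in 1 of 3 windows, so NLRC4 had more windows in which to match. CASP1 had no window, and the motifs were chosen with earlier results of these data known. Whether the form goes with the differences was therefore not tested. A longer form with 1 more A at its end was found in CASP5 and AIM2 but not in NLRC4, and in 3.02% of all windows. AIM2 also held an AP-1 form, TGACTCA at -155, a form found in 6.57% of all windows. A match is a run of letters, not evidence of binding, and no binding data belong to these samples.

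Of the sensors, NLRC4, which responds to bacterial flagellin and secretion systems through NAIP proteins, read 6.0 in resting cells, 7.52 after Pam3CSK4, 7.75 at 12 h and 7.64 at 24 h. The resting value lay under the filter level and the treated arrays stood within 0.22 of each other. The difference with Pam3CSK4 was 1.52, or 2.87-fold, and 2.47% of genes were at least as far up. The second NLRC4 probe set stayed between 3.53 and 4.01, under the filter level on every array, with a difference of 0.21.

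AIM2, a sensor of double-stranded DNA in the cytosol, read 4.93 in resting cells, 5.96 after Pam3CSK4, 6.43 at 12 h and 6.15 at 24 h. The resting array was the lowest and the 12 h array the highest. The difference with Pam3CSK4 was 1.03, just past 2-fold, with both values under the filter level, where signal over background was not established.

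NLRP3, the sensor most studied in primed monocytes, was not higher with Pam3CSK4. Its leading probe set read 9.31 in resting cells, 9.07 after Pam3CSK4, 9.09 at 12 h and 9.07 at 24 h. The 4 values spanned 0.24, within the median disagreement between probe sets for Pam3CSK4 against resting. The other 2 probe sets of NLRP3 lay under the filter level on every array and differed by -0.71 and 0.16 with Pam3CSK4, so they share no direction.

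NLRP1, whose protein is held in check by the dipeptidyl peptidases DPP8 and DPP9, read 6.22 in resting cells, 6.53 after Pam3CSK4, 6.41 at 12 h and 6.33 at 24 h. These values lie close to the filter level. Its other 4 probe sets were under the level on every array, and over all 5 the difference with Pam3CSK4 ran from -0.05 to 0.31.

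MEFV encodes pyrin, the sensor altered in familial Mediterranean fever. It read 6.36 in resting cells, 6.48 after Pam3CSK4, 6.76 at 12 h and 6.80 at 24 h, the single gene of the 10 whose highest value was on the 24 h array. The 24 h value was only 0.04 above the 12 h value, and the values lie not far above the filter level. MEFV has a single probe set, of the suffix _x_at. Its difference with Pam3CSK4 was 0.12, under the median disagreement between probe sets.

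PYCARD, the adaptor, read 12.67 in resting cells, 12.58 after Pam3CSK4, 12.16 at 12 h and 12.54 at 24 h. The 12 h array was the lowest. With Pam3CSK4 the difference was -0.10.

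GSDMD read 9.30 in resting cells, 8.87 after Pam3CSK4, 9.09 at 12 h and 9.06 at 24 h. Here the resting array was the highest. The difference with Pam3CSK4 was -0.43, a 1.35-fold lower value, the lowest of the 10 genes on the probe sets that stand for them, and 10.2% of all genes compared were at least as far down. Both PYCARD and GSDMD had a single probe set.

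**Figure D2:**
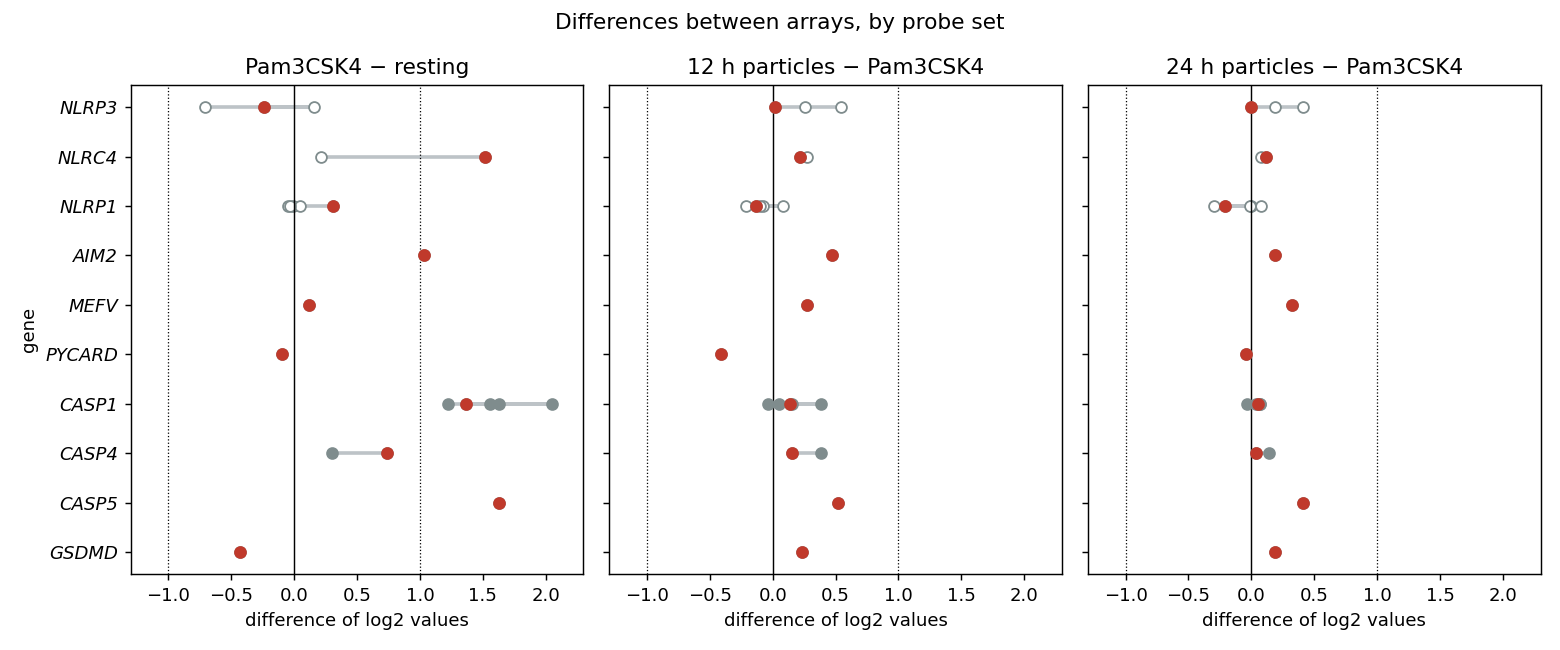
Difference of log2 values (horizontal axis) for each gene (vertical axis) in 3 comparisons. Red points are the probe sets that stand for the genes, filled grey points other probe sets that reached the filter level, open points those that did not, and dotted lines mark 2-fold. The 5 own probe sets of CASP1 lie beyond the 2-fold line for Pam3CSK4 against resting, and no probe set does in the comparisons with the particles.

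Other measurements moved along with Pam3CSK4. The GAPDH control gap was 2.16 on the resting array and 0.59 with Pam3CSK4, and the ACTB gap was 3.41 and 2.91. Monocyte markers, summed over 6 genes as linear levels, went from 8806 to 15519, and the granulocyte markers, summed over 6 of 6 genes, from 16483 to 9545. Most of the first sum was LYZ, at 12.98 then 13.70, and most of the second was ELANE, at 13.61 then 12.95. The other monocyte genes were also higher except FCGR1A, and the other granulocyte genes were also lower. No marker was at 0 on any array, and 5 of the 6 monocyte genes and 5 then 4 of the 6 granulocyte genes reached the filter level. The labels name THP-1 alone on these arrays, so the lists read genes of that line and not shares of blood cell types. In bulk RNA a shift in the mix of cell states and a change in RNA per cell cannot be told apart. The part of these shifts in the differences above was not tested.

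The 12 h co-culture array was then compared with Pam3CSK4 alone, where particles and time cannot be told apart. The counts past 2-fold were 0 of 10 upward and 0 of 10 downward, against 0.410% and 0.350% of all genes compared. The median difference was 0.19, against -0.049 over all genes. Without _x_at and _s_at probe sets it was 0.38 over the 7 members that remained, a set without PYCARD, NLRP1 and MEFV. Of the 10, 8 were above 0, against 41.1% of all genes. Most of these differences were small: 3 genes exceeded the median disagreement between probe sets upward, CASP5, AIM2 and MEFV, and PYCARD exceeded it downward. None of the 10 exceeded 0.58, the range that 90% of genes with several probe sets stayed within.

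CASP5 differed by 0.52 at 12 h, a 1.43-fold higher value, and 2.55% of genes were at least as far up. AIM2 differed by 0.47, where the Pam3CSK4 value of 5.96 lay under the filter level. MEFV differed by 0.27, GSDMD by 0.23 and NLRC4 by 0.22. The DNA sensor and the caspase encoded by CASP5 were therefore the members farthest above the Pam3CSK4 array at 12 h.

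CASP1 and CASP4 depended on the probe set read. The leading probe sets differed by 0.14 and 0.15, and another probe set of each, read by probes without the _x_at or _s_at suffix, by 0.38. Over the 5 own probe sets of CASP1 the range was -0.04 to 0.38, which includes both signs. NLRP3 differed by 0.02 on its leading probe set and by 0.26 and 0.54 on the other 2, which were under the filter level throughout.

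PYCARD was the lowest of the 10 at 12 h, with a difference of -0.41, a 1.33-fold lower value, and 8.14% of genes were at least as far down. NLRP1 differed by -0.13. The adaptor therefore stood on the opposite side of the Pam3CSK4 level from CASP5 and AIM2.

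At 24 h against Pam3CSK4, the counts past 2-fold were again 0 of 10 in each direction, against 0.0298% and 0% of all genes compared. The median difference was 0.08, against -0.006 over all genes, and 7 of 10 were above 0, against 47.5%. With averaged probe sets the median was 0.19 over the 8 members that remained, a set without NLRP1 and NLRC4. CASP5 differed by 0.41, or 1.33-fold, with 0.768% of genes at least as far up, and was the single member beyond 0.36, the range that 90% of genes with several probe sets stayed within. MEFV differed by 0.32, with 2.15% of genes at least as far up, AIM2 by 0.19 and GSDMD by 0.19. For AIM2 the values compared, 5.96 and 6.15, both lay under the filter level. NLRP1 was lowest at -0.21, and PYCARD stood at -0.04.

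Both co-culture comparisons use the same Pam3CSK4 array, so a low or high reading of a gene on that array would enter both. Compared with each other, the 24 h and 12 h arrays differed by at least 2-fold in 0 of the 10 genes in either direction, against 0.343% of all genes higher and 0.224% lower at 24 h. The median was -0.09, against 0.044 over all genes, and 2 of 10 were above 0, against 57.7%. The 2 were PYCARD at 0.37 and MEFV at 0.04. AIM2 was the lowest, at -0.28, and with PYCARD it alone exceeded the median disagreement between probe sets for this comparison, 0.24. The 12 h array also enters 12 h against Pam3CSK4, where 8 of 10 were above 0, with PYCARD at -0.41 and AIM2 at 0.47. A high or low reading on that array would enter both with opposite signs, so they are not independent.

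**Figure D3:**
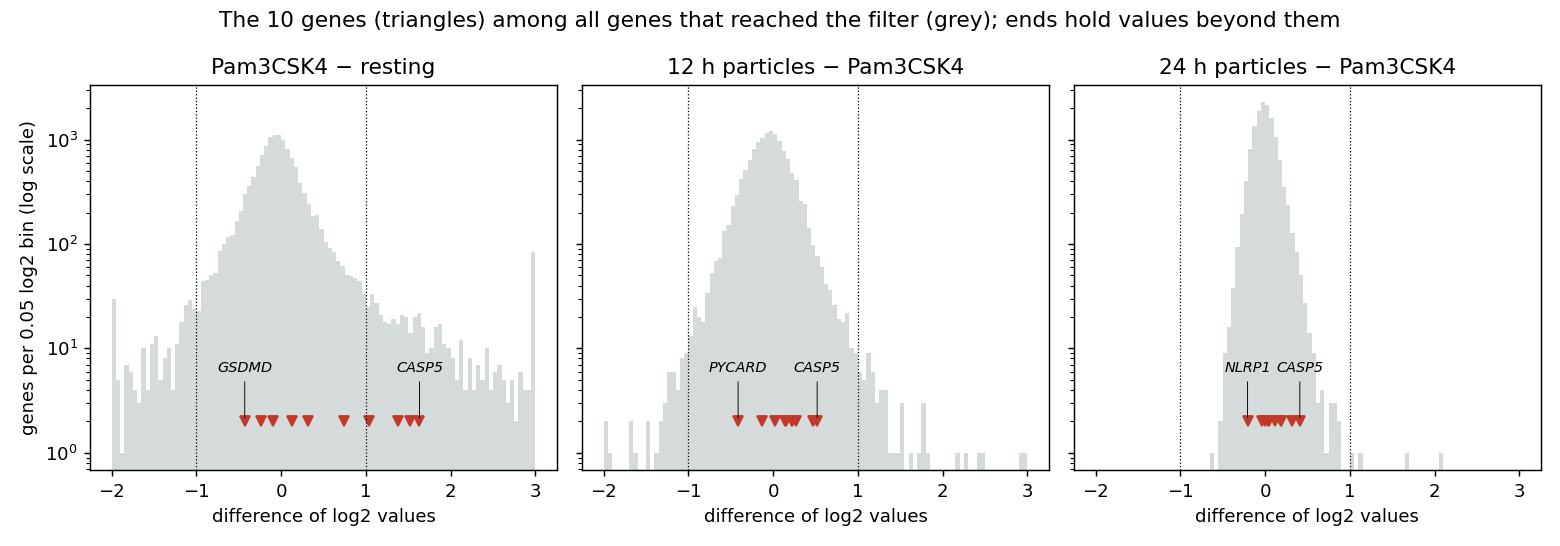
Number of genes per bin of 0.05 log2 (vertical axis, log scale) by difference of log2 values (horizontal axis) for the 13410 genes compared, in grey, with the 10 inflammasome genes as red triangles at a fixed height. Dotted lines mark 2-fold, and the outermost bins collect values beyond the axis ends. CASP5 is the rightmost triangle in each panel, at 1.63, 0.52 and 0.41, and the leftmost are GSDMD at -0.43, PYCARD at -0.41 and NLRP1 at -0.21.

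Markers of platelets and red cells were read as well. Of 9 megakaryocyte and platelet genes, 7 had a probe set of their own, and the defining platelet chemokine genes PF4 and PPBP stayed at 5.72 to 5.97 and 3.40 to 3.79, under the filter level on every array. The summed linear level of the 7 was 676 in resting cells, 557 after Pam3CSK4, 697 at 12 h and 600 at 24 h, with 5, 5, 5 and 4 genes at the filter level. For 4 of 9 erythroid genes it was 511, 550, 649 and 695, with 2, 2, 3 and 3 genes at that level. Among them HBE1, the embryonic globin gene, read 5.42 in resting cells, 5.45 after Pam3CSK4, 6.30 at 12 h and 7.50 at 24 h. EPOR at 8.02 to 8.29, HBB at 7.19 to 7.59 and GP9 at 7.15 to 7.58 were above the filter level on every array. Monocyte markers had a lower sum at 12 h, 11656, against 15519 with Pam3CSK4 and 16729 at 24 h. Most of these sums was LYZ, at 13.70 with Pam3CSK4 and 13.29 at 12 h. CSF1R alone of the 6 genes was higher at 12 h, at 9.0 against 8.67 with Pam3CSK4. No marker was at 0, and the part of these lists in the inflammasome differences was not tested. Lymphocyte markers, 6 of 7 with a probe set, summed to 992 to 1454, and granulocyte markers to 8583 to 10741 on the treated arrays.

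The other genes of the pathway were taken from a list of 45, of which 39 had a probe set of their own and 33 reached the filter level. Of the 33, Pam3CSK4 placed 8 past 2-fold upward and 0 downward, with a median of 0.16, against 4.14% and 1.71% of all genes compared and a median of -0.047. Against Pam3CSK4, 0 of the 33 were at least 2-fold different in either direction at 12 h or at 24 h, with medians of 0.01 and 0.05. Over all genes the shares were 0.410% higher and 0.350% lower at 12 h, with a median of -0.049, and 0.0298% and 0% at 24 h, with a median of -0.006.

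Among the substrates and executioners, 1 of 7 was at least 2-fold higher with Pam3CSK4. This was IL1B, the gene of the main cytokine cut by caspase-1, which read 6.83 in resting cells, 10.78 after Pam3CSK4, 11.56 at 12 h and 10.79 at 24 h. The resting array was far the lowest and the 12 h array the highest, with the Pam3CSK4 and 24 h arrays level. IL18, the gene of the other caspase-1 cytokine, went from 6.84 to 7.03, 7.24 and 7.40 over the same arrays. NINJ1, whose protein ruptures the membrane of dying cells, read 8.63, 9.56, 10.22 and 9.57, so it too was highest at 12 h.

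GSDME, which encodes another pore-forming gasdermin, differed by 0.08 with Pam3CSK4 and by 0.55 at 12 h and 0.21 at 24 h against Pam3CSK4. At 12 h, 0.902% of all genes were at least as far up as IL1B, 1.35% as NINJ1 and 2.21% as GSDME. All 3 were farther above the Pam3CSK4 array than CASP5, the leading one of the 10 genes.

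Among the partners and regulators, 4 of 13 were at least 2-fold higher with Pam3CSK4. P2RX7, the ATP-gated channel that triggers NLRP3, went from 7.12 to 10.51, and its 2 probe sets differed by 1.60 and 3.38. The guanylate-binding protein genes, whose products act on bacterial membranes ahead of the non-canonical caspases, were the others: GBP2 differed by 3.09, GBP5 by 2.11 and GBP1 by 1.64, with GBP1 and GBP2 under the filter level in resting cells. NEK7, the kinase that binds NLRP3, differed by -0.12 and TXNIP by -0.47.

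Of 8 other sensors, 2 were at least 2-fold higher with Pam3CSK4: IFI16, a DNA sensor related to AIM2, by 2.24, and NOD2, a sensor of muramyl dipeptide, by 2.0. NOD2 then read 9.20 with Pam3CSK4, 8.41 at 12 h and 9.01 at 24 h. Its difference of -0.79 at 12 h was the lowest among the 33 genes on the probe sets that stand for them, and 1.02% of all genes were at least as far down. NAIP, the partner of NLRC4, differed by 0.16 with Pam3CSK4 and by 0.36 at 12 h.

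Among inhibitors and decoys, 1 of 5 was at least 2-fold higher with Pam3CSK4. CFLAR, a relative of caspase-8 without protease activity, differed by 1.61, and its 12 probe sets above the filter level ranged from 0.30 to 1.68. CARD16 was just under 2-fold at 0.97. The brakes of NLRP1, DPP8 and DPP9, differed by 0.16 and 0.04, and the protease inhibitor gene SERPINB1 by 0.10.

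**Figure D4:**
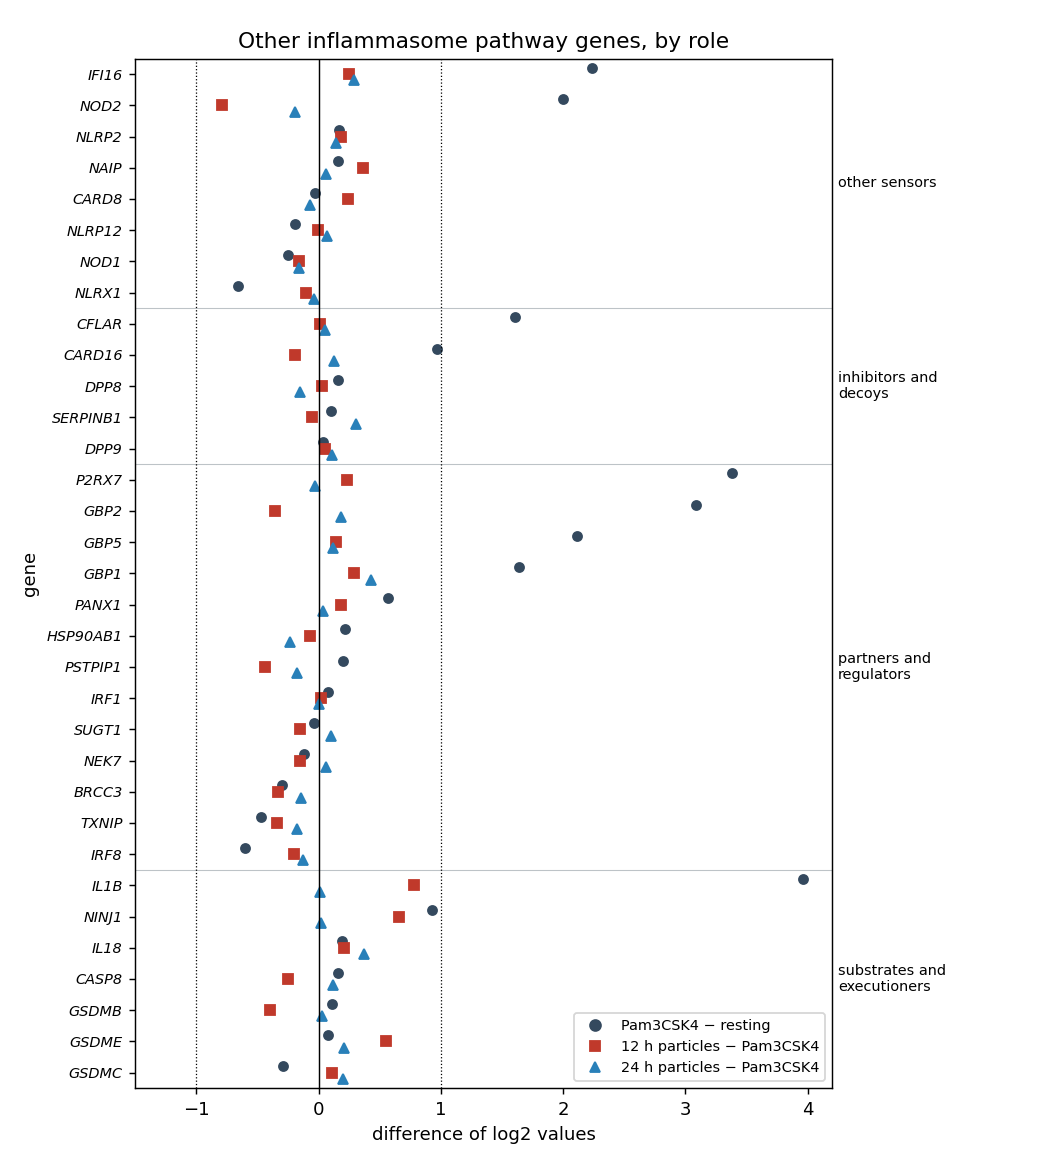
Difference of log2 values (horizontal axis) of the 33 other pathway genes (vertical axis) grouped by role, for Pam3CSK4 minus resting (dark circles) and for the 12 h (red squares) and 24 h (blue triangles) arrays minus Pam3CSK4. Dotted lines mark 2-fold. The dark circles of IL1B, P2RX7, GBP2, IFI16, GBP5, NOD2, GBP1 and CFLAR lie beyond 2-fold, while every red and blue symbol lies within it.

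Genes with the most similar profiles were sought for the 4 members that differed at least 2-fold, as the smallest Euclidean distance over 4 arrays after each gene's mean was removed. Nearest to CASP5 was GIMAP8, at a distance of 0.07, then LINC01094 at 0.12 and PLXNC1 at 0.13. Nearest to CASP1 were IER5 at 0.06, PLSCR1 at 0.06 and PLGRKT at 0.08. For NLRC4 they were MARCKS at 0.05, C3AR1 at 0.05 and SHFL at 0.06. For AIM2 they were IL1R2, the decoy receptor of interleukin-1, at 0.03, DPYSL2 at 0.06 and TRIM69 at 0.06.

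Such profiles were not particular to these genes. Within a distance of 0.5, among the 13410 genes compared, there were 158 genes for CASP5, 266 for NLRC4, 357 for CASP1 and 414 for AIM2. IL1R2 read 5.19, 6.21, 6.73 and 6.43 on the resting, Pam3CSK4, 12 h and 24 h arrays, which places it, like AIM2, lowest on the resting array and highest at 12 h.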

How the data were processed

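Biotin-labelled RNA from THP-1 cells was read on 4 Affymetrix arrays, per the labels' protocols. The deposited log2 values, 54675 probe sets on each array, were made by the authors with RMA in affy 1.28.1, per the submitters' processing notes. RMA forces a common distribution, so a global shift in RNA content cannot be seen, and it compresses low differences. The sorted columns differed by at most 0.11. Signal over background was judged by level alone, and the number of arrays limits the precision. All columns were mapped, and groups came from the source labels. The titles of the co-culture arrays end in numbers 1 higher than the 12 h and 24 h of the source labels and descriptions, which were used.

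Probe sets were named through the platform annotation table: 41097 name 1 gene and 1801 several. Symbols were looked up in RefSeq by gene identifier, with 0 changed. The probe set with the highest mean stood for a gene, and 13410 of 19775 genes reached 6.19 on 1 or more arrays. Differences of log2 values were counted at 2-fold, and no p-value was computed. The named genes are all 10 members, pathway genes at least 2-fold different or leading their role, and the 3 nearest profiles of each member at least 2-fold different. The members and lists were chosen with earlier results of these data known, as were the motifs. Pathway genes named beyond this rule were chosen after their values were seen. The alternatives were the filter (none, or the 75th percentile), the mean of probe sets, omission of _x_at and _s_at probe sets, cyclic loess (limma 3.58.1, R 4.3.3, 3 iterations) and 1.5-fold and 3-fold thresholds. The counting was checked on simulated arrays. Python 3.11.15, numpy 2.4.6, pandas 2.3.3, Biopython 1.88 and matplotlib 3.10.9 were used.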

Additional observations from a re-analysis of the deposited data

Results flagged for a closer look

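NLRP3 was the single member of the 10 whose leading probe set lay on opposite sides of the Pam3CSK4 array at 12 h and at 24 h. It differed by 0.02 at 12 h and by -0.00033 at 24 h. Both values are far under the median disagreement between probe sets, both comparisons share the Pam3CSK4 array, and the difference between them was not tested.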

How the results depend on the processing

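No paired analysis was possible because each group holds 1 array, and for the same reason no array could be left out in turn. With Pam3CSK4, the count of members at least 2-fold higher was 4, and it was 2 with a filter at the 75th percentile, which left 6 of the 10 genes, and 1 at 3-fold. It was 3 to 5 with no filter, with averaged probe sets, without _x_at and _s_at probe sets, with cyclic loess and at 1.5-fold. The median difference of the members was 0.53, and 1.03 without _x_at and _s_at probe sets, which left 7 genes. PYCARD, NLRP1 and MEFV dropped out there. The median under the alternatives ran from 0.14 to 0.38 at 12 h, from 0.04 to 0.19 at 24 h and from -0.11 to -0.06 for 24 h against 12 h. In the comparisons with the particles and of 24 h with 12 h, the member counts were 0 in each direction under every alternative run. An alternative chosen after seeing the data asked every probe set of a gene at the filter level to pass 2-fold, and it gave 4 members for Pam3CSK4. CASP5, AIM2 and NLRC4 had 1 such probe set each, the one already counted, so their outcome was fixed in advance. Only CASP1, with 5, could have dropped out. The second NLRC4 probe set, at 0.21, lay under the filter level and was not asked. Of 164 differences of single members under the alternatives, 158 moved by less than the median disagreement between probe sets and 6 by more. Those 6 were CASP1 and CASP4 without _x_at and _s_at probe sets, for Pam3CSK4 and at 12 h, and NLRP3 with averaged probe sets, at 0.27 for 12 h and 0.20 for 24 h. Many of the other 158 could not move, because a change of filter leaves a gene's difference as it was. The same holds for averaging where a gene has 1 probe set, and for the omission where its leading probe set has neither suffix. The count of 158 is therefore no measure of stability.

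The counts over all genes moved with the threshold. For Pam3CSK4 they were 555 higher and 229 lower at 2-fold, 1017 and 790 at 1.5-fold, and 310 and 67 at 3-fold. At 12 h, 55 and 47 became 255 and 383 at 1.5-fold and 12 and 6 at 3-fold, with 26 lower for averaged probe sets. At 24 h, 4 higher and 0 lower became 22 and 1 at 1.5-fold, 2 higher at 3-fold, and 1 higher with the 75th percentile filter and with averaged probe sets. For 24 h against 12 h, 46 and 30 became 421 and 185 at 1.5-fold and 5 and 5 at 3-fold, with 21 higher for averaged probe sets.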
